A study of Homo sapiens with 39 samples.

Results

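Methyl methanesulfonate (MMS), a methylating agent that acts on DNA without metabolic activation, was given to HepaRG™ cells at 50, 100 and 200 µM, the low, mid and high concentrations of its series. HepaRG™ is a human hepatoma line that differentiates into hepatocyte-like and biliary-like cells and keeps much of the metabolic enzyme activity of liver. Of the 39 libraries of the study, 8 are described here: the 3 MMS libraries, the 1 water control prepared for them and 4 media controls that had been prepared for sodium chloride (NaCl), 2-deoxy-D-glucose (2DG), ascorbic acid (ASC) and ampicillin (AMP). They were chosen by the treatment and vehicle in their labels, so that no measured value entered the choice. All cells were cryopreserved, differentiated cells of commercial origin that were kept 7 days after seeding, exposed daily for 3 days and collected 7 h after the third dose, 55 h after the first. RNA from the cultures of a condition (n = 3 pellets) was pooled, so each concentration is 1 library and the spread between its cultures was not measured. The vehicle was water or medium, not DMSO, in all 8 libraries.

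MMS transfers methyl groups mainly to the ring nitrogens of guanine and adenine and, to a small extent, to the O6 position of guanine. Methylated bases are removed by the glycosylase MPG and the base excision repair pathway, by direct reversal through MGMT and the ALKBH enzymes, or are met by replication forks, where mismatch repair, translesion polymerases and homologous recombination act. MMS also methylates thiols such as glutathione and protein cysteines. p53 is the transcription factor best known for answering DNA damage, and MDM2 and CDKN1A are its textbook targets.

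Expression was measured with a targeted panel that reads 1 amplicon per gene for 20802 genes, as counts and as reads per 1000000 counts of the library (RPM). The 8 libraries held 8864858 to 16425527 counts, and 10 spike-in targets had no counts. In each library 60.9 to 63.9% of the targets had at least 10 counts. The hepatocyte-like markers (10 genes, led by ALB) summed to 26135 RPM in the water control and 24228 to 32408 RPM in the media controls. The cholangiocyte-like markers (8 genes, 3 of them under 10 counts in every library) summed to 1291 RPM in water and 1078 to 1477 RPM in media. Markers of mesenchymal, endothelial and immune cells (9 genes) summed to 194 RPM in water and 153 to 223 RPM in media, and 3 of the 9 were at 0 in all 8 libraries. At 100 and 200 µM MMS the 3 sums were 3633 and 6914, 527 and 839, and 117 and 110 RPM. In the trend test described below 9 of 10, 3 of 8 and 3 of 9 markers fell, against 10.4% of all genes tested. By the number of genes past 2-fold the untreated libraries fell into 2 sets: the water, NaCl and 2DG controls on one side and the ASC and AMP media controls on the other. ASC and AMP differed from each other by more than 2-fold at 14 genes, but from the water control at 551 and 431. For this reason the range over all 5 untreated libraries is given beside the MMS values.

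The number of genes that differed from the water control was small at 50 µM and large at the higher concentrations. Differences were taken on log2(RPM + 1), and a gene was counted when it passed 2-fold among genes with at least 10 counts in the higher of the 2 libraries, which involves no p-value. At 50 µM, 127 of 13312 genes passed (0.954%), 53 higher (0.398%) and 74 lower (0.556%). At 100 µM, 1425 of 13440 passed (10.6%), 453 higher (3.37%) and 972 lower (7.23%). At 200 µM, 1164 of 13321 passed (8.74%), 424 higher (3.18%) and 740 lower (5.56%). With TMM factors, which scale libraries by the bulk of their genes, the split was 264 higher against 902 lower at 200 µM and 30 against 89 at 50 µM. Between 50 and 100 µM, 924 of 13286 passed (6.95%), 201 higher (1.51%) and 723 lower (5.44%) at 100 µM. The media controls, which were not treated, passed the same limit against water at 82 to 551 genes (0.609 to 4.07%), so the 50 µM count lay within what untreated libraries gave and the other counts lay above it. Against each other, pairs of media controls passed it at 14 to 868 genes (0.105 to 6.46%). Of the genes past 2-fold, 91, 1326 and 1117 at 50, 100 and 200 µM also lay outside the range of all 5 untreated libraries. Lying outside that range was common by itself. Without the 2-fold limit it held for 5664 of 13312, 8366 of 13440 and 8529 of 13321 genes at 50, 100 and 200 µM. All 3 concentrations were set against the same water library.

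**Figure D1:**
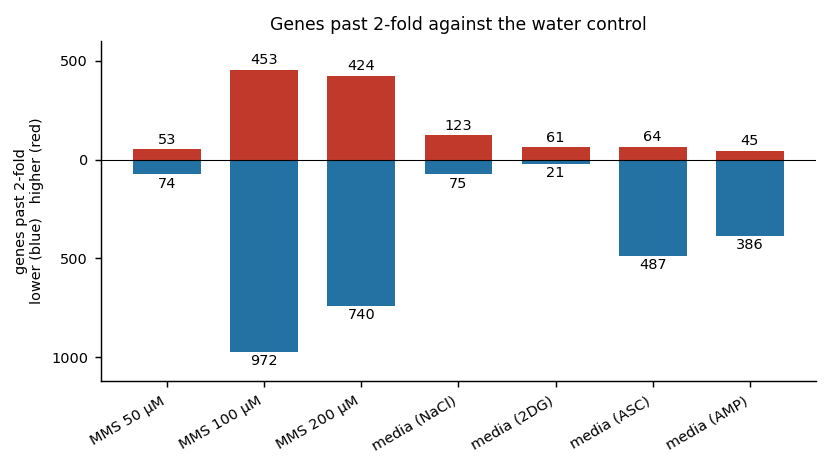
Number of genes past 2-fold higher (red, above 0) and lower (blue, below 0) than the water control on log2(RPM + 1), for the 3 MMS libraries and the 4 media controls. The bars reach 453 higher and 972 lower genes at 100 µM and 53 and 74 at 50 µM, while the media control of ASC shows 487 lower genes.

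A trend over the 4 concentration steps (0, 1, 2 and 3 for water, low, mid and high) was fitted per gene with edgeR's quasi-likelihood test on all 39 libraries, in which every control set had its own level and every chemical its own slope. The slope is the log2 fold change per step, given with its standard error. The error came from the scatter of all chemicals about straight trends, not from replicate cultures of MMS. In all, 2140 of 13812 genes passed an adjusted p of 0.05 (15.5%): 705 rose (5.1%) and 1435 fell (10.4%). With scaling to library totals alone the split was 1104 against 1146, and without the 50 µM library 431 rose and 1279 fell. Among the falling genes 789 were lowest at 100 µM and 580 fell at each step from 50 to 200 µM; among the rising genes 434 rose at each step from 50 to 200 µM and 260 were highest at 100 µM.

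The 8 genes of smallest p in each direction lay outside the untreated range at 100 and 200 µM. They were picked by a p-value from the same MMS libraries, so lying outside the range adds no support. Among all genes, 8366 of 13440 at 100 µM and 8529 of 13321 at 200 µM lay outside it. APBB2, an adaptor protein that binds the amyloid precursor protein, had the smallest p: it gave 162 RPM in the water control, 134 to 142 RPM in the media controls and 104, 59.6 and 34.2 RPM at 50, 100 and 200 µM (slope -0.79 ± 0.06, adjusted p = 5.89e-09). MUM1L1 had 42.6 RPM in water, 32.2 to 46.3 RPM in the media controls and 29.3, 12.8 and 9.48 RPM with increasing MMS (slope -0.81 ± 0.07, adjusted p = 3.97e-08), and SESN3, of the sestrin family of stress proteins, had 75.4 RPM in water, 58.8 to 88.1 RPM in the media controls and 62.4, 26.6 and 18.7 RPM with increasing MMS (slope -0.77 ± 0.07, adjusted p = 1.42e-07). GABRE, IQGAP2, GULP1, PGLYRP2 and TRIB2 completed the 8 falling genes of lowest p, with slopes between -1.68 ± 0.19 (PGLYRP2) and -0.66 ± 0.07 (GULP1). None of the 8 overlapped the untreated range at 100 or 200 µM. On the rising side DUSP14, a dual specificity phosphatase, had 38.9 RPM in the water control, 38.9 to 46.8 RPM in the media controls and 45.3, 97.5 and 102 RPM at 50, 100 and 200 µM (slope 0.49 ± 0.07, adjusted p = 5.80e-05). MICALL1 had 43 RPM in water, 35.3 to 46.7 RPM in the media controls and 60.1, 130.3 and 149 RPM with increasing MMS (slope 0.62 ± 0.09, adjusted p = 8.02e-05), and PLA2G15, a lysosomal phospholipase, had 11.1 RPM in water, 9.55 to 15.5 RPM in the media controls and 18.4, 38.1 and 38 RPM with increasing MMS (slope 0.60 ± 0.09, adjusted p = 8.22e-05). SLC7A11, PRKAB1, SLC1A5, TRAIP and CERS5 made up the rest, and all 8 rising genes were above the 5 untreated libraries at 100 and 200 µM. SLC7A11 and SLC1A5 carry cystine and glutamine into the cell.

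Hepatocyte transcripts fell together. Of 20 hepatocyte genes 19 fell and none rose, against 10.4% falling among all genes tested, and 19 were past 2-fold lower at 200 µM, against 5.56% of all genes. Their median log2 difference from water was -0.52, -2.26 and -1.78 at 50, 100 and 200 µM, against 0.05, 0.08 and 0.09 for all genes. In the media controls the hepatocyte median was 0.78 (NaCl), -0.06 (2DG), 0.64 (ASC) and 0.55 (AMP). ALB, the serum albumin gene, gave 19228 RPM in the water control, 14020.2 to 23406 RPM in the media controls and 15146, 2299 and 5106 RPM at 50, 100 and 200 µM (slope -0.81 ± 0.19, adjusted p = 0.00387). Its 100 and 200 µM values were far below the 5 untreated libraries and the 50 µM value was among them. APOA1, the main protein of high density lipoprotein, had 1245 RPM in water, 1021 to 2142 RPM in the media controls and 776, 192 and 233 RPM with increasing MMS (slope -0.94 ± 0.11, adjusted p = 4.73e-06). TF, which encodes transferrin, had 1149 RPM in water, 979 to 2017 RPM in the media controls and 738, 167 and 250.3 RPM with increasing MMS (slope -0.87 ± 0.14, adjusted p = 9.51e-05), and FABP1, the liver fatty acid binding protein, had 95.3 RPM in water, 92.5 to 218 RPM in the media controls and 71.6, 8.71 and 22.2 RPM with increasing MMS (slope -0.91 ± 0.23, adjusted p = 0.00812). Each of the 3 genes was lower at 100 than at 200 µM, as were 18 of the 20. PCK1, a gluconeogenic enzyme, had 5.71 RPM in water, 1.62 to 3.48 RPM in the media controls and 0.705, 0.088 and 0.113 RPM with increasing MMS (slope -2.60 ± 0.50, adjusted p = 7.61e-04), and OTC of the urea cycle had 2.7 RPM in water, 1.77 to 5.28 RPM in the media controls and 0.302, 0.088 and 0 RPM with increasing MMS. SERPINA1 was the member that did not pass (10.9 RPM in water, 12.1 to 16.9 RPM in the media controls and 11.6, 5.37 and 8.01 RPM with increasing MMS, adjusted p = 0.24). All 20 were outside the untreated range at 200 µM, against 8529 of 13321 among all genes. Without the 50, 100 or 200 µM library 18, 17 and 18 of the 20 fell. In bulk samples fewer hepatocyte-like cells and less RNA per cell cannot be told apart.

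Many regulators of the hepatocyte state fell as well. Of 16 transcription factors and nuclear receptors 12 fell and none rose, against 10.4% falling among all genes. Without the 50, 100 or 200 µM library 9, 6 and 9 fell, and 6 fell with library totals alone or with concentration as a share of the high one. NR1H4, the bile acid receptor FXR, had 43.3 RPM in water, 35.1 to 57.5 RPM in the media controls and 26.2, 3.25 and 9.48 RPM with increasing MMS (slope -0.95 ± 0.16, adjusted p = 2.63e-04). HNF4A, a regulator of many liver genes, had 59.9 RPM in water, 61.8 to 101 RPM in the media controls and 45.3, 21.8 and 27.8 RPM with increasing MMS (slope -0.47 ± 0.15, adjusted p = 0.0374). PROX1, FOXA1 and ONECUT1 also fell. The aryl hydrocarbon receptor gene AHR had 48.4 RPM in water, 26.6 to 51.1 RPM in the media controls and 34.4, 15 and 39.4 RPM with increasing MMS; it was low at 100 µM only and did not pass (adjusted p = 0.393).

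Of the genes of drug metabolism and transport some fell and none rose. The falling genes were 11 of 25 phase I genes, 5 of 15 phase II genes and 12 of 16 genes for transport and bile acids, against 10.4% of all genes. Without the 100 µM library 2 phase II genes fell. CYP2C8, a cytochrome P450 of drug oxidation, had 27 RPM in the water control, 34.2 to 63 RPM in the media controls and 21.5, 2.64 and 3.27 RPM at 50, 100 and 200 µM (slope -1.26 ± 0.27, adjusted p = 0.00232). Its values at 100 and 200 µM were the lowest of the 8 libraries, and at 50 µM it was also under the water control. CYP2E1 had 18.6 RPM in water, 14.5 to 45.2 RPM in the media controls and 7.66, 1.23 and 2.6 RPM with increasing MMS (slope -1.23 ± 0.27, adjusted p = 0.00266) and CYP3A5 had 251 RPM in water, 146 to 231 RPM in the media controls and 129, 42.3 and 45.9 RPM with increasing MMS (slope -0.92 ± 0.11, adjusted p = 4.73e-06). CYP3A4, the main drug-oxidising enzyme of adult liver, had 8.41 RPM in water, 12.2 to 27.4 RPM in the media controls and 9.97, 1.76 and 3.5 RPM with increasing MMS and did not pass (adjusted p = 0.102). EPHX1, the microsomal epoxide hydrolase, had 861 RPM in water, 805 to 888 RPM in the media controls and 701, 597 and 356 RPM with increasing MMS and was lower at 200 than at 100 µM (slope -0.44 ± 0.06, adjusted p = 4.94e-05). CES1, a carboxylesterase of liver, had 3541 RPM in water, 3398 to 4404 RPM in the media controls and 4075, 3893 and 4234 RPM with increasing MMS and did not pass (adjusted p = 0.773). Amplicons of close relatives, such as those of the CYP3A, GSTA, MT1 and HIST1 families, may share reads, and values of single members are uncertain to that extent. In phase II SULT2A1, a hydroxysteroid sulfotransferase, had 65.4 RPM in water, 61.3 to 159 RPM in the media controls and 58.4, 9.32 and 16.4 RPM with increasing MMS (slope -0.88 ± 0.18, adjusted p = 0.00142), and UGT1A1, the bilirubin glucuronosyltransferase, had 149 RPM in water, 144 to 193 RPM in the media controls and 121, 82.9 and 80.5 RPM with increasing MMS (slope -0.36 ± 0.08, adjusted p = 0.00407).

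**Figure D2:**
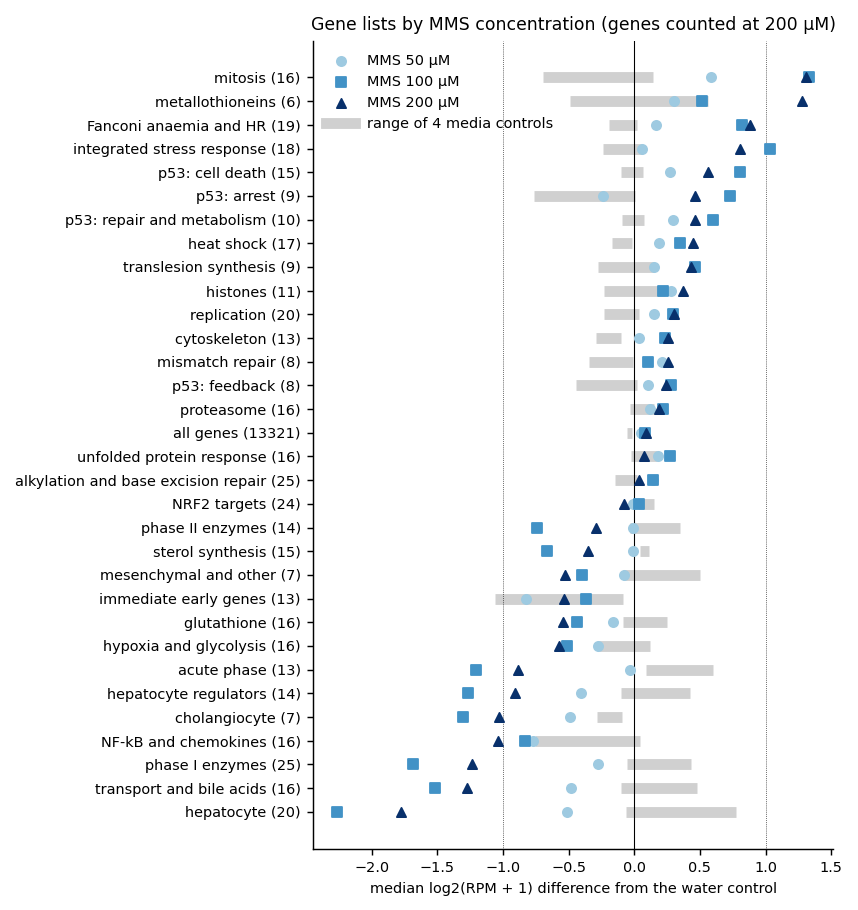
Median log2(RPM + 1) difference from the water control over the members of each gene list with at least 10 counts, at 50 µM (circles), 100 µM (squares) and 200 µM (triangles); grey bars span the 4 media controls, and the number of genes is in brackets. The hepatocyte list reaches -2.26 at 100 µM and the mitosis list 1.33, while all genes together stay at 0.05 to 0.09.

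Some p53 targets passed the trend as rising, and the textbook ones MDM2 and CDKN1A did not pass. Across 42 p53 targets in 4 lists 11 rose and none fell, against 5.1% rising among all genes, and 10 were past 2-fold higher at 200 µM, against 3.18% of all genes. Their median log2 difference was 0.14, 0.61 and 0.49 at 50, 100 and 200 µM, and 28 of the 42 were higher at 100 than at 200 µM. In the feedback list PPM1D, the phosphatase WIP1 that restrains p53, had 30.1 RPM in the water control, 27.2 to 29.3 RPM in the media controls and 32.1, 58.2 and 68.6 RPM at 50, 100 and 200 µM (slope 0.40 ± 0.08, adjusted p = 8.87e-04). The 5 untreated values lay between 27.2 and 30.1 RPM, and the 100 and 200 µM values stood clear of them. MDM2, the ubiquitin ligase of p53, had 777 RPM in the water control, 283 to 691 RPM in the media controls and 845, 621 and 1222 RPM at 50, 100 and 200 µM and did not pass (slope 0.13 ± 0.15, adjusted p = 0.637). Its 50 and 200 µM values were above the untreated range and its 100 µM value was within it, and the ASC and AMP media controls were under the other 3 controls. CDKN1A, which encodes the cell cycle inhibitor p21, had 747 RPM in the water control, 537 to 702 RPM in the media controls and 633, 978 and 911 RPM at 50, 100 and 200 µM (slope 0.11 ± 0.07, adjusted p = 0.344). Its log2 difference of 0.29 at 200 µM was under that of many other targets. The 100 and 200 µM values of CDKN1A were above the 5 untreated libraries, and its 50 µM value was among them.

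Among the arrest genes SFN, a 14-3-3 protein that holds cells in G2, had 11.3 RPM in water, 9.74 to 13 RPM in the media controls and 18.3, 40.2 and 40.4 RPM with increasing MMS (slope 0.63 ± 0.17, adjusted p = 0.0123); E2F7, a repressor of E2F targets, had 7.14 RPM in water, 2.44 to 7.52 RPM in the media controls and 7.35, 23.9 and 18.4 RPM with increasing MMS (slope 0.55 ± 0.13, adjusted p = 0.00372); and BTG2, an antiproliferative factor, had 86.1 RPM in water, 68.5 to 79.9 RPM in the media controls and 92.8, 148 and 161 RPM with increasing MMS (slope 0.30 ± 0.08, adjusted p = 0.0129). GADD45A and GDF15 were below the water control at 50 µM and above it at 100 and 200 µM and did not pass (adjusted p = 0.154 and 0.396). Among death genes TP53I3 had 80.5 RPM in water, 56.2 to 96 RPM in the media controls and 136, 246 and 237 RPM with increasing MMS (slope 0.52 ± 0.11, adjusted p = 0.00256), PMAIP1, the BH3-only protein NOXA, had 14.9 RPM in water, 11.1 to 20.1 RPM in the media controls and 14.8, 53.5 and 45.2 RPM with increasing MMS (slope 0.64 ± 0.13, adjusted p = 9.88e-04), and SPATA18 and the death receptor gene FAS also rose. BAX had 199 RPM in water, 163 to 191 RPM in the media controls and 237, 262 and 244 RPM with increasing MMS (adjusted p = 0.565) and BBC3, which encodes PUMA, had 7.85 RPM in water, 5.39 to 9.98 RPM in the media controls and 10.8, 14.4 and 14.2 RPM with increasing MMS (adjusted p = 0.31). Among repair and metabolism targets POLH, the translesion polymerase eta, had 45.8 RPM in the water control, 42.9 to 48 RPM in the media controls and 58.6, 92.6 and 119 RPM at 50, 100 and 200 µM (slope 0.44 ± 0.08, adjusted p = 5.95e-04); FDXR, a mitochondrial reductase, had 76.2 RPM in water, 77.8 to 93 RPM in the media controls and 112, 195 and 167 RPM with increasing MMS (slope 0.39 ± 0.10, adjusted p = 0.0081); and XPC, which finds bulky lesions, had 152 RPM in water, 137 to 162 RPM in the media controls and 193, 330.0 and 312 RPM with increasing MMS (slope 0.36 ± 0.09, adjusted p = 0.00529). The count of rising p53 targets was 11 without the 50 µM library, 11 without the 100 µM library and 14 without the 200 µM library. With concentration entered as a share of the high one, 7 rose. With 8 libraries and no control sets 18 rose and 1 fell. With all 9 controls, the DMSO ones included, at step 0 and no control sets 29 rose and 1 fell.

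**Figure D3:**
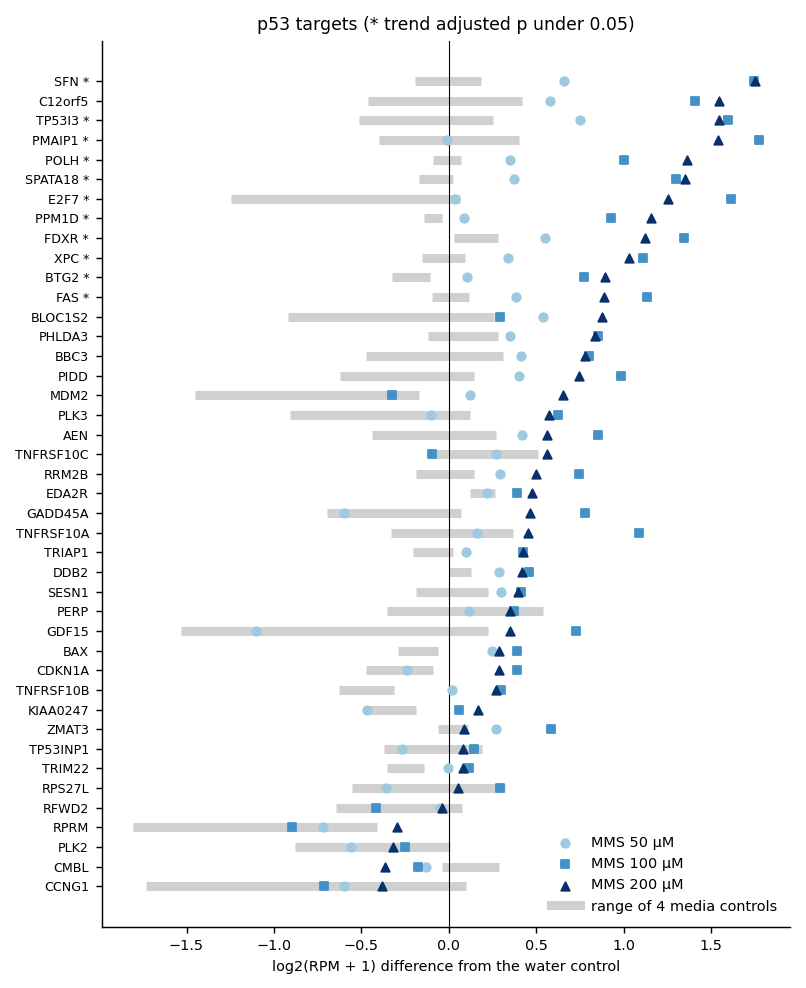
Log2(RPM + 1) difference from the water control for 42 p53 targets at 50 µM (circles), 100 µM (squares) and 200 µM (triangles), ordered by the 200 µM value, with grey bars for the range of the 4 media controls. Asterisks mark the 11 genes whose trend passed; SFN stands highest at 1.75, and MDM2 and CDKN1A lie at 0.65 and 0.29 without an asterisk.

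Enzymes that deal with methylated bases passed about as often as all genes did. Of 25 alkylation and base excision repair genes tested 2 rose and 2 fell, against 5.1% rising and 10.4% falling among all genes, and none was past 2-fold at 200 µM; the median log2 difference was 0.14, 0.14 and 0.03, and it was -0.09 at 200 µM with TMM factors. TMM factors moved the 200 µM library by -0.13 on the log2 scale relative to water, so small differences near 0 depend on the scaling. MGMT, which takes the methyl group off O6-methylguanine, had 43.1 RPM in the water control, 40.6 to 46 RPM in the media controls and 38, 31.6 and 33.4 RPM at 50, 100 and 200 µM (slope -0.18 ± 0.06, adjusted p = 0.0438). The 3 MMS values were below all 5 untreated ones, by little. MPG, the glycosylase that releases 3-methyladenine and 7-methylguanine, had 49.97 RPM in the water control, 45.3 to 51.7 RPM in the media controls and 53.6, 49.6 and 42.6 RPM at 50, 100 and 200 µM (slope -0.12 ± 0.07, adjusted p = 0.251). OGG1, the 8-oxoguanine glycosylase, fell (52.3 RPM in water, 41.1 to 48 RPM in the media controls and 42.2, 36.9 and 32.6 RPM with increasing MMS, slope -0.26 ± 0.07, adjusted p = 0.0109). LIG1, which seals nicks at the replication fork and in long-patch repair, had 48.1 RPM in water, 32.1 to 48.7 RPM in the media controls and 55.7, 91 and 92.2 RPM with increasing MMS (slope 0.32 ± 0.11, adjusted p = 0.0431), and NEIL3, a glycosylase of dividing cells, had 14.5 RPM in water, 9.68 to 20.5 RPM in the media controls and 19.8, 36.2 and 27.3 RPM with increasing MMS (slope 0.34 ± 0.12, adjusted p = 0.0477). PARP1, which binds single-strand breaks, had 339 RPM in water, 291 to 327 RPM in the media controls and 333, 335 and 275 RPM with increasing MMS and did not pass (adjusted p = 0.0537). ALKBH2 and ALKBH3, which reverse N1-methyladenine and N3-methylcytosine, had 14.6 RPM in water, 9.92 to 17.2 RPM in the media controls and 16.6, 18.8 and 13.5 RPM with increasing MMS and 22.2 RPM in water, 20.6 to 29.4 RPM in the media controls and 25.4, 23 and 26.7 RPM with increasing MMS (adjusted p = 0.858 and 0.857). None of 8 mismatch repair genes passed in either direction in the main edgeR fit or with DESeq2, and 1 had an unadjusted p below 0.05 with edgeR. With library totals alone, with 8 libraries and no control sets, or without the 200 µM library 1 rose. With all 9 controls at step 0 and no control sets 3 rose. Their median log2 difference from water was 0.21, 0.10 and 0.26. At 200 µM all 8 were higher than water, against 7601 of 13321 among all genes. In the alkylation list 0, 0 and 1 genes rose and 1, 2 and 0 fell without the 50, 100 and 200 µM library.

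Of 19 Fanconi anaemia and homologous recombination genes, which serve crosslink repair and recombination, 7 rose and none fell, against 5.1% rising among all genes. At 200 µM 8 were past 2-fold higher, against 3.18% of all genes, and the median log2 difference was 0.16, 0.82 and 0.88. FANCD2 and FANCI, the pair that is ubiquitinated at stalled forks, had 8.25 RPM in the water control, 7.3 to 8.53 RPM in the media controls and 11.9, 22.9 and 23.6 RPM at 50, 100 and 200 µM (slope 0.51 ± 0.14, adjusted p = 0.0105) and 6.19 RPM in water, 4.7 to 7.43 RPM in the media controls and 8.06, 18.8 and 17.8 RPM with increasing MMS (slope 0.55 ± 0.13, adjusted p = 0.00494). FANCA had 8.57 RPM in water, 4.87 to 9.24 RPM in the media controls and 12.6, 20.2 and 21.8 RPM with increasing MMS (slope 0.43 ± 0.12, adjusted p = 0.0124), UBE2T, the ubiquitin conjugating enzyme of the pathway, had 42.3 RPM in water, 41.8 to 44.6 RPM in the media controls and 56.4, 108 and 92.2 RPM with increasing MMS (slope 0.40 ± 0.13, adjusted p = 0.0351), and RAD54L, a recombination motor, had 4.28 RPM in water, 3.36 to 5.53 RPM in the media controls and 4.13, 14.5 and 10.5 RPM with increasing MMS (slope 0.54 ± 0.15, adjusted p = 0.013). Of 9 translesion genes POLH, MAD2L2 and PCNA rose; PCNA, the sliding clamp, had 96.3 RPM in water, 79.4 to 119 RPM in the media controls and 139, 161 and 192 RPM with increasing MMS (slope 0.28 ± 0.09, adjusted p = 0.0337). With concentration as a share of the high one, none of the 19 Fanconi and recombination genes passed.

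Of 16 mitotic genes 9 rose and none fell, against 5.1% rising among all genes. At 200 µM 12 were past 2-fold higher, against 3.18% of all genes, and the median log2 difference was 0.58, 1.33 and 1.31; in the media controls it was -0.70 (ASC), -0.65 (AMP), -0.12 (NaCl) and 0.14 (2DG). PLK1, a kinase that drives mitotic entry, had 22.1 RPM in the water control, 16.3 to 24.6 RPM in the media controls and 42.4, 81.4 and 78.1 RPM at 50, 100 and 200 µM (slope 0.61 ± 0.17, adjusted p = 0.0133). All 3 MMS values were above the 5 untreated ones, the 50 µM value included. TOP2A, the topoisomerase of chromosome segregation, had 81.9 RPM in the water control, 46.6 to 91.1 RPM in the media controls and 150.4, 261 and 258 RPM at 50, 100 and 200 µM (slope 0.54 ± 0.15, adjusted p = 0.0124). CENPF, a kinetochore protein, had 54 RPM in water, 25.9 to 60.02 RPM in the media controls and 93.8, 143 and 176 RPM with increasing MMS (slope 0.53 ± 0.13, adjusted p = 0.00517), CDK1, the mitotic kinase, had 39.6 RPM in water, 20.9 to 40.5 RPM in the media controls and 59.8, 117 and 113 RPM with increasing MMS (slope 0.52 ± 0.11, adjusted p = 0.00128), and MKI67, the proliferation marker, had 35 RPM in water, 13.6 to 31.6 RPM in the media controls and 49.7, 52.9 and 90.02 RPM with increasing MMS (slope 0.38 ± 0.12, adjusted p = 0.0338). CCNB1, the cyclin partner of CDK1, had 23.6 RPM in water, 16.8 to 27.8 RPM in the media controls and 49.7, 73.5 and 48.8 RPM with increasing MMS, with its highest value at 100 µM, and did not pass (adjusted p = 0.126). Leaving out the 50 or the 100 µM library left 4 and 5 of the 16 called, leaving out the 200 µM library 9, and none passed with concentration as a share of the high one.

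Promoters of mitotic genes often hold the cell cycle homology region, written TTTGAA. It was searched on both strands in the 300 bases from 250 before to 50 after each RefSeq start (GRCh38.p14), where 15.4% of 27305 promoters held it. Of the 12 list members with a promoter given, 8 held it, and of the 7 that rose 6 did. Those of PLK1 (chr16:23678639-23678938, plus strand) and TOP2A (chr17:40417847-40418146, minus strand) are shown, 5′ to 3′ along the gene with the motif in capitals, since all 3 MMS libraries of these genes were above the untreated range.
PLK1: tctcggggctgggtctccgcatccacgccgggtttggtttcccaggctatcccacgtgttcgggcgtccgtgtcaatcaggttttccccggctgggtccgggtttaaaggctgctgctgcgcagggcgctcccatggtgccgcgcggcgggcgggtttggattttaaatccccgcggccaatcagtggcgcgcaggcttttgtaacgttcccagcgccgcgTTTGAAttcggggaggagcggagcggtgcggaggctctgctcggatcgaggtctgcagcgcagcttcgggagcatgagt
TOP2A: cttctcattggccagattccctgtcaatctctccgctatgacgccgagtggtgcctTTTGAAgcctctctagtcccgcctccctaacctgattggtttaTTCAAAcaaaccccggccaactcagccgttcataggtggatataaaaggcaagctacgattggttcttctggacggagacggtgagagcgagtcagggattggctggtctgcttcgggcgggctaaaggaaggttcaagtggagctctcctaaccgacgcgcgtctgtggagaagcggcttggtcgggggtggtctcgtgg

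Of 20 replication genes 5 rose and none fell, against 5.1% rising among all genes, and without the 50, 100 or 200 µM library 2, 5 and 3 rose. RRM2 and RRM1, the subunits of ribonucleotide reductase, had 80.4 RPM in water, 64.7 to 80.6 RPM in the media controls and 97.6, 274 and 203 RPM with increasing MMS (slope 0.54 ± 0.15, adjusted p = 0.0166) and 40.1 RPM in water, 26.1 to 46.6 RPM in the media controls and 56.2, 73.2 and 97.6 RPM with increasing MMS (slope 0.38 ± 0.09, adjusted p = 0.00373). TYMS, TK1 and PCNA also rose. The helicase subunit gene MCM5 had 46.6 RPM in water, 32.5 to 47.7 RPM in the media controls and 36.8, 36.7 and 19.9 RPM with increasing MMS, with its lowest value at 200 µM (adjusted p = 0.0614). MCM6 had 136 RPM in water, 111 to 127 RPM in the media controls and 120.0, 141 and 156 RPM with increasing MMS (adjusted p = 0.784). In the histone list HIST1H2BN rose and HIST1H2BK fell, and the other 9 genes did not pass.

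Targets of ATF4, the transcription factor of the integrated stress response that serves amino acid supply, rose in part. Of 18 members tested 5 rose and none fell, against 5.1% rising among all genes, and the median log2 difference was 0.06, 1.03 and 0.80. ATF4 itself had 186 RPM in the water control, 171 to 194 RPM in the media controls and 206, 546 and 402 RPM at 50, 100 and 200 µM (slope 0.46 ± 0.10, adjusted p = 0.00314). The 5 untreated values and the 50 µM value lay close together, and the 2 higher concentrations stood apart. SLC7A11, the cystine transporter, had 63.5 RPM in the water control, 40.6 to 73.7 RPM in the media controls and 111, 306 and 254 RPM at 50, 100 and 200 µM (slope 0.74 ± 0.11, adjusted p = 8.31e-05). PSAT1 of serine synthesis had 126 RPM in water, 127 to 167 RPM in the media controls and 129.7, 345 and 262 RPM with increasing MMS (slope 0.43 ± 0.13, adjusted p = 0.0202), TRIB3, a pseudokinase induced by ATF4, had 29.4 RPM in water, 22.4 to 33.2 RPM in the media controls and 31, 77.6 and 61.3 RPM with increasing MMS (slope 0.42 ± 0.14, adjusted p = 0.0457), and SLC7A5, a transporter of large neutral amino acids, had 4.92 RPM in water, 3.56 to 5.54 RPM in the media controls and 4.03, 14.2 and 13.4 RPM with increasing MMS (slope 0.57 ± 0.16, adjusted p = 0.014). CHAC1, which degrades glutathione, had 3.09 RPM in water, 2.13 to 2.77 RPM in the media controls and 2.12, 16.3 and 11.3 RPM with increasing MMS and missed the threshold (adjusted p = 0.0567). The stress factors ATF3 and DDIT3 did not pass: ATF3 had 76.2 RPM in the water control, 10.8 to 67.2 RPM in the media controls and 27.4, 88.3 and 78.7 RPM at 50, 100 and 200 µM (adjusted p = 0.828), within the spread of its controls except at 100 and 200 µM, and DDIT3, which encodes CHOP, had 1.67 RPM in water, 0.336 to 1.84 RPM in the media controls and 1.11, 2.38 and 1.47 RPM with increasing MMS (adjusted p = 0.976). The ATF4 response letters TGATGNAA, searched in the same way, were in 3.67% of all promoters, in 4 of 19 list promoters (ATF3, CHAC1, ASNS and FGF21) and in none of the 4 rising genes with a promoter in the table. With the 200 µM library left out 8 rose, and without the 50 µM library 3.

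Other stress programmes are set against 5.1% rising and 10.4% falling among all genes. Of 16 genes of the unfolded protein response DNAJB11 alone rose (122 RPM in water, 120.3 to 132 RPM in the media controls and 138, 196 and 225 RPM with increasing MMS, slope 0.28 ± 0.06, adjusted p = 0.0034); HSPA5, the chaperone BiP, had 922 RPM in water, 880.1 to 974 RPM in the media controls and 944, 1389 and 1132 RPM with increasing MMS (adjusted p = 0.454). Of 17 heat shock genes SERPINH1, a collagen chaperone, alone rose (128 RPM in water, 87.5 to 98.8 RPM in the media controls and 154, 190.4 and 212 RPM with increasing MMS, slope 0.21 ± 0.06, adjusted p = 0.0227). Among 24 NRF2 targets SRXN1 and SLC7A11 rose, while AKR1B10, AKR1C1, ABCC2 and ABCC3 fell. SRXN1, sulfiredoxin, had 85.3 RPM in water, 76.7 to 107 RPM in the media controls and 101, 231 and 161 RPM with increasing MMS (slope 0.38 ± 0.12, adjusted p = 0.0258), and NQO1 and HMOX1, common readouts of NRF2, had 11.7 RPM in water, 6.5 to 15.4 RPM in the media controls and 10.3, 8.8 and 9.02 RPM with increasing MMS (adjusted p = 0.212) and 18.2 RPM in water, 17.3 to 26.8 RPM in the media controls and 14.6, 30.9 and 18.7 RPM with increasing MMS (adjusted p = 0.726). Of 18 glutathione genes 6 fell and none rose, and 3 fell without the 100 µM library or with library totals alone: GSTA1, a glutathione transferase abundant in liver, had 1079 RPM in the water control, 1310.1 to 1786 RPM in the media controls and 877, 198 and 321 RPM at 50, 100 and 200 µM (slope -0.74 ± 0.14, adjusted p = 8.12e-04), and GSTM4 had 79.6 RPM in water, 85.5 to 98.1 RPM in the media controls and 61.3, 37.2 and 33.8 RPM with increasing MMS (slope -0.48 ± 0.09, adjusted p = 3.46e-04). The glutamate-cysteine ligase subunits GCLC and GCLM had 191 RPM in water, 112 to 356 RPM in the media controls and 224, 145 and 169 RPM with increasing MMS and 170.1 RPM in water, 145 to 235 RPM in the media controls and 198, 243 and 250.2 RPM with increasing MMS, and neither passed (adjusted p = 0.585 and 0.0583). Of 7 metallothioneins, which bind metals through cysteine, MT2A rose (2929.8 RPM in water, 1821 to 3689 RPM in the media controls and 3603, 7651 and 7847 RPM with increasing MMS, slope 0.50 ± 0.12, adjusted p = 0.00443). MT1E had 236 RPM in water, 157 to 580.0 RPM in the media controls and 352, 566 and 703 RPM with increasing MMS and MT1X 133 RPM in water, 78.6 to 285 RPM in the media controls and 216, 296 and 357 RPM with increasing MMS; their untreated values were widely spread and neither passed (adjusted p = 0.27 and 0.33).

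Chemokines and other targets of NF-kB, the transcription factor of inflammatory signalling, fell in part. Of 17 members tested 10 fell and none rose, against 10.4% falling among all genes, and the median log2 difference was -0.77, -0.83 and -1.04; in the media controls it was -0.33 (NaCl), 0.05 (2DG), -0.58 (ASC) and -0.75 (AMP). NFKBIZ, an inhibitor-like co-regulator of NF-kB, had 248 RPM in the water control, 113 to 166 RPM in the media controls and 89, 61.8 and 41.6 RPM at 50, 100 and 200 µM (slope -0.88 ± 0.11, adjusted p = 9.71e-06). CXCL2, a neutrophil chemokine, had 164 RPM in the water control, 96.6 to 205 RPM in the media controls and 54.1, 31.4 and 30.01 RPM at 50, 100 and 200 µM (slope -0.87 ± 0.19, adjusted p = 0.00234). IL8 had 259 RPM in water, 145 to 268 RPM in the media controls and 94, 70.1 and 78.5 RPM with increasing MMS (slope -0.61 ± 0.13, adjusted p = 0.00169), CXCL1 57.1 RPM in water, 25 to 78.7 RPM in the media controls and 28.6, 15 and 14.2 RPM with increasing MMS (slope -0.75 ± 0.19, adjusted p = 0.00838), CCL2 28.1 RPM in water, 15.7 to 31.3 RPM in the media controls and 15.3, 13.6 and 9.59 RPM with increasing MMS (slope -0.53 ± 0.11, adjusted p = 0.00126) and NFKBIA, the inhibitor IkB-alpha that NF-kB itself induces, 282 RPM in water, 213 to 291 RPM in the media controls and 167, 157 and 148 RPM with increasing MMS (slope -0.33 ± 0.06, adjusted p = 4.68e-04). In all 6 genes each MMS value, the 50 µM one included, lay below the 5 untreated values, except for CXCL1 at 50 µM. Most of them were named for large differences in these same libraries. Over 16 list members 9, 11 and 11 lay outside the untreated range at 50, 100 and 200 µM. Among all genes 5664 of 13312, 8366 of 13440 and 8529 of 13321 did. ICAM1 and TNFAIP3 were within their untreated range at 200 µM (adjusted p = 0.719 and 0.936). Leaving out the 50, 100 or 200 µM library left 9, 7 and 9 falling.

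The kB motif, GGG and TTCC with any 3 bases between them, was searched on both strands in the same promoter windows. It was in 6.47% of all promoters, in 12 of 18 list promoters and in 7 of the 9 falling genes with a promoter in the table. The promoters of NFKBIA (chr14:35404700-35404999, minus strand) and CXCL2 (chr4:74099146-74099445, minus strand), genes that were lower in every MMS library, are shown with the motif in capitals; in CXCL2 the capitals cover 2 overlapping matches, 1 on each strand.
NFKBIA: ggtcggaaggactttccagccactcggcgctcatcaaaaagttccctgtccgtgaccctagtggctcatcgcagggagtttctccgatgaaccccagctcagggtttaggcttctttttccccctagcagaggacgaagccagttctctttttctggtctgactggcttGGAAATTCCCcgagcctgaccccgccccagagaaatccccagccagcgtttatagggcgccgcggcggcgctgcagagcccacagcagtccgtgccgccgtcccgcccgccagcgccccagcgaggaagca
CXCL2: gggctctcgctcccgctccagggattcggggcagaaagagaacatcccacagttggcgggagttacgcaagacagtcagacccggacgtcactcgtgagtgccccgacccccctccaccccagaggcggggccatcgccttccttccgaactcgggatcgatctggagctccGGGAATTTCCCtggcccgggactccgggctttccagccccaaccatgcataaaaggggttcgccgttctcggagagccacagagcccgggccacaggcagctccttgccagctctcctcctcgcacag

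Immediate early genes, transcription factors that cells switch on within minutes, were widely spread among untreated libraries. Of 14 tested 5 fell, against 10.4% of all genes: FOSB, FOS, EGR2, EGR1 and JUNB. Without the 100 µM library 3 fell, and with 8 libraries and no control sets 1 of 13 fell and 1 rose. The list median at 200 µM was -0.53 against water and -0.16 against the mean of the 4 media controls. Against the ASC and AMP media controls it was 0.29, so the fall depended on the control used. FOSB had 66 RPM in water, 3.53 to 47.3 RPM in the media controls and 12.6, 5.54 and 6.32 RPM with increasing MMS, so its fall set the MMS libraries against a water control that was above all media controls (slope -1.26 ± 0.29, adjusted p = 0.0035). FOS had 349 RPM in water, 150.1 to 379 RPM in the media controls and 208, 90.3 and 100.2 RPM with increasing MMS, with the 100 and 200 µM values below all 5 untreated ones (slope -0.69 ± 0.15, adjusted p = 0.00225). DUSP1 had 2964 RPM in water, 1323 to 2625 RPM in the media controls and 1601, 2189 and 2107 RPM with increasing MMS and MYC 172 RPM in water, 101 to 174 RPM in the media controls and 111, 183 and 188 RPM with increasing MMS, and neither passed (adjusted p = 0.253 and 0.742). Of 15 acute phase genes, serum proteins of liver, 7 fell, among them FGG, a fibrinogen chain (1630.2 RPM in water, 1795 to 2442 RPM in the media controls and 1411, 873 and 577 RPM with increasing MMS, slope -0.56 ± 0.11, adjusted p = 6.13e-04), and ORM2, an orosomucoid (3534 RPM in water, 3299 to 4647 RPM in the media controls and 2584, 1260.2 and 1308 RPM with increasing MMS, slope -0.56 ± 0.11, adjusted p = 5.68e-04). SAA1 had 1434 RPM in water, 1914 to 2982 RPM in the media controls and 1727, 757 and 978 RPM with increasing MMS and did not pass (adjusted p = 0.422).

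**Figure D4:**
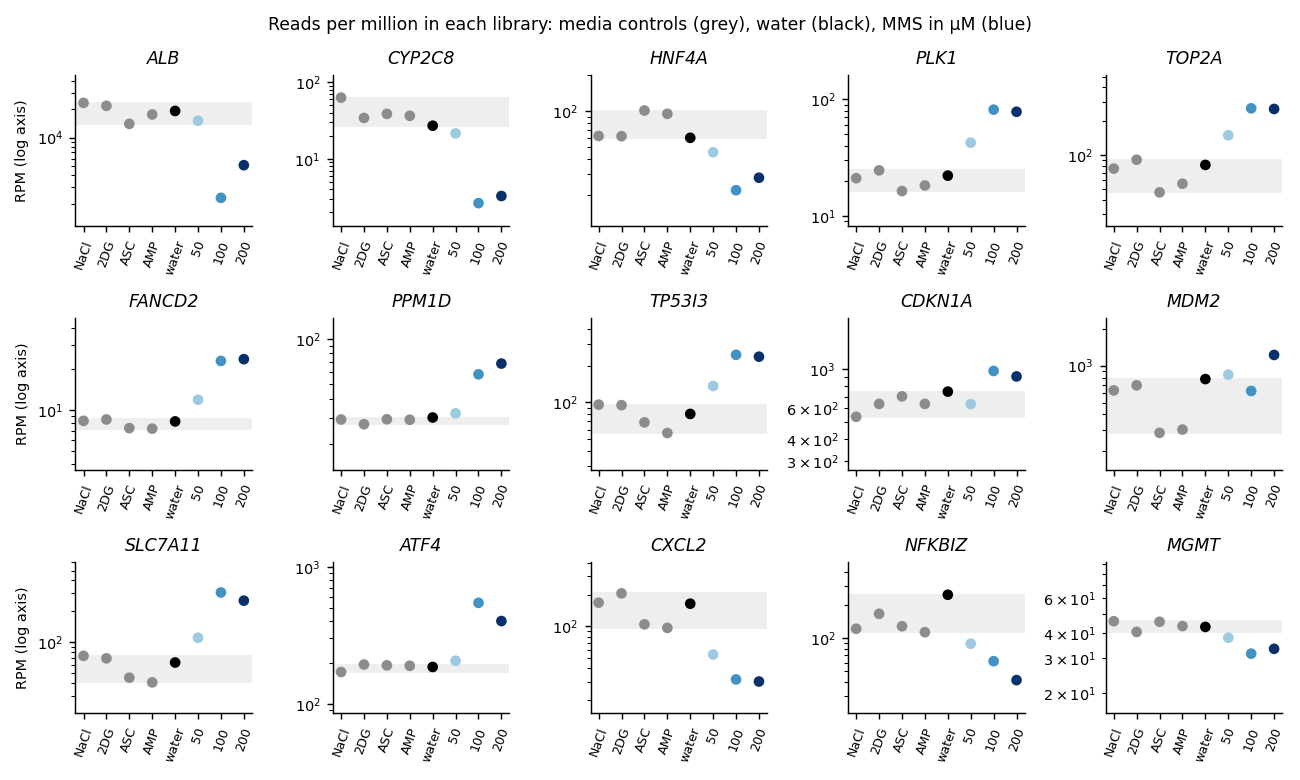
RPM on a log axis for 15 genes in each of the 8 libraries: media controls (grey), water control (black) and MMS at 50, 100 and 200 µM (light to dark blue), with the range of the 5 untreated libraries shaded. ALB, CYP2C8 and HNF4A drop below the shaded range at 100 and 200 µM, PLK1 and TOP2A lie above it in all 3 MMS libraries, and CXCL2 and NFKBIZ lie below it in all 3.

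Of 7 cholangiocyte genes tested 4 fell, against 10.4% of all genes, SPP1, SOX9 and KRT23 among them, and 2 fell without the 100 µM library. SPP1, osteopontin, had 88 RPM in water, 75.6 to 118 RPM in the media controls and 53.3, 27.7 and 29.2 RPM with increasing MMS (slope -0.61 ± 0.09, adjusted p = 5.80e-05), and KRT19 had 1149.8 RPM in water, 942 to 1314 RPM in the media controls and 943, 465 and 769 RPM with increasing MMS without passing (adjusted p = 0.107). ITGB4 had 18.4 RPM in water, 7.62 to 17.2 RPM in the media controls and 18.7, 24.5 and 27 RPM with increasing MMS. It lay above its untreated libraries but did not pass (adjusted p = 0.386). Of the 7 genes 2 were above the water control at 200 µM. COL3A1, a fibrillar collagen, fell (40.3 RPM in water, 28.5 to 54 RPM in the media controls and 23.4, 7.83 and 8.69 RPM with increasing MMS, slope -0.87 ± 0.12, adjusted p = 2.22e-05), with COL1A1 and PECAM1, of 7 mesenchymal and other cell genes, and 1 fell without the 100 or the 200 µM library. COL1A1 stayed within its untreated range. It had 52 RPM in water, 22.4 to 33.1 RPM in the media controls and 29.3, 28.5 and 25.2 RPM with increasing MMS. PECAM1 was below its untreated range at 200 µM only. Of the 7 genes 3 were above the water control at 200 µM. Of 16 hypoxia and glycolysis genes 8 fell and none rose, of 15 sterol synthesis genes 4 fell, and of 14 cytoskeleton genes 1 fell. Without the 200 µM library 4 hypoxia and glycolysis genes fell, and without the 100 µM library 2 sterol genes. Of 16 proteasome genes 0 passed with edgeR or DESeq2 in either direction, and 0 had an unadjusted p below 0.05 with edgeR.

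The slope of MMS was then set against the mean slope of the 4 other DNA damage-inducing (DDI) chemicals of the study: aflatoxin B1 (AFB1), 2-nitrofluorene (2NF), cisplatin (CISP) and etoposide (ETP). MMS was dissolved in water and the others in DMSO, each with its own control, so vehicle and chemical cannot be told apart. The difference passed for 586 of 13812 genes (4.24%), 104 higher with MMS (0.753%) and 482 lower (3.49%); with library totals alone 154 were higher and 372 lower. Of the 42 p53 targets PLK2, a polo-like kinase, was the only one that passed in the main fit, lower with MMS (difference -0.37 ± 0.11, adjusted p = 0.0481). This call was lost without the 100 or the 200 µM library, without AFB1, CISP or ETP, with library totals alone and on either other concentration scale. In the main edgeR fit no gene of the alkylation, mismatch repair, Fanconi and recombination, translesion or mitosis lists passed. There 4, 0, 2, 1 and 1 had an unadjusted p below 0.05. In the alkylation list 1 gene passed with DESeq2, with log2 concentration, or with AFB1 or 2NF left out of the mean. In the translesion list 1 gene passed with log2 concentration or without the 200 µM library. A difference that misses the threshold does not show that the slopes were alike; for CDKN1A it was -0.08 ± 0.08, for MGMT -0.06 ± 0.07 and for MPG -0.11 ± 0.07 per step.

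Of the NF-kB list 10 of 17 were lower with MMS than with the other DDI chemicals, against 3.49% of all genes. Its median slope was -0.36 for MMS and 0.17, 0.17, 0.10 and 0.20 for AFB1, 2NF, CISP and ETP. The differences were -0.84 ± 0.13 for NFKBIZ (adjusted p = 2.41e-04), -1.0004 ± 0.21 for CXCL2 (adjusted p = 0.0064), -0.68 ± 0.12 for CCL2 (adjusted p = 0.0011) and -0.51 ± 0.09 for BIRC3, an inhibitor of apoptosis (adjusted p = 0.00183). CCL20, CXCL1, CXCL3, CXCL10, IL8 and NFKBIA were the other members. The count was 10, 7 and 8 without the 50, 100 and 200 µM library, 9 or 10 with 1 of the other chemicals left out, and 5 with concentration as a share of the high one. ATF4 (difference 0.47 ± 0.11, adjusted p = 0.0158) and SLC7A11 (difference 0.56 ± 0.12, adjusted p = 0.00809) were higher with MMS, as was DNAJB11 (difference 0.28 ± 0.07, adjusted p = 0.0195). In the integrated stress response list the median slope was 0.32 for MMS and 0.02, 0.41, -0.06 and -0.08 for AFB1, 2NF, CISP and ETP. The median of 2NF was thus above that of MMS. Of the 18 members 2 were higher with MMS, and 5 were with 2NF left out of the mean. MCM5 (difference -0.64 ± 0.16, adjusted p = 0.0203), CDC45 (difference -0.46 ± 0.11, adjusted p = 0.0144), GINS2 and MCM7 of the replication list were lower, and none of this list passed without the 200 µM library.

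**Figure D5:**
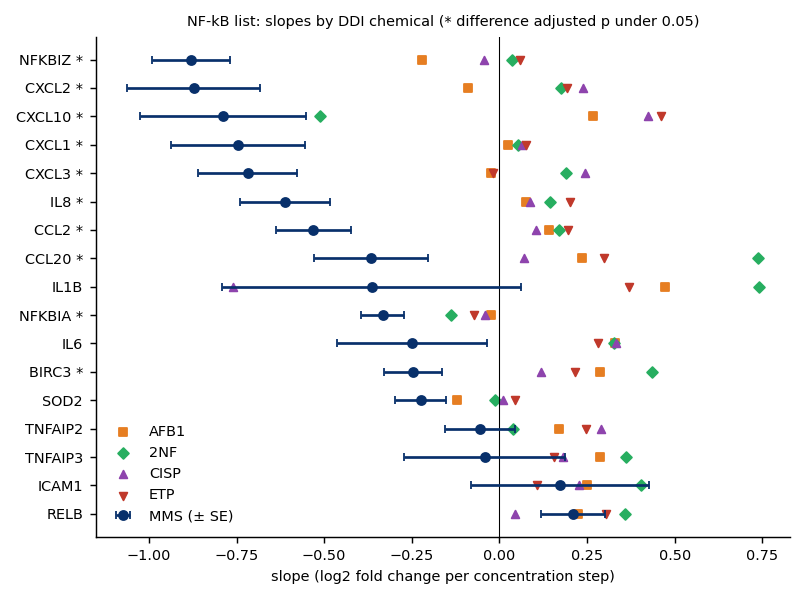
Slopes (log2 fold change per concentration step) of the 17 NF-kB list members tested for MMS (dark circles, bars ± SE) and for AFB1, 2NF, CISP and ETP (other symbols). Asterisks mark the 10 genes whose difference passed; for NFKBIZ the MMS slope is -0.88, and the 4 other slopes lie to its right.

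Over all genes the lowest p-values of this difference belonged to APBB2 (difference -0.64 ± 0.07, adjusted p = 3.85e-06), MUM1L1 (difference -0.72 ± 0.08, adjusted p = 3.85e-06), GABRE, a GABA receptor subunit (difference -0.87 ± 0.10, adjusted p = 1.03e-05), SESN3 (difference -0.68 ± 0.08, adjusted p = 1.03e-05), ERVMER34-1 (difference -0.64 ± 0.08, adjusted p = 3.94e-05) and TRIB2 (difference -0.79 ± 0.10, adjusted p = 3.94e-05), all lower with MMS. On the higher side they were TOR1AIP2 (difference 0.37 ± 0.07, adjusted p = 0.00191), ZNF140 (difference 0.58 ± 0.11, adjusted p = 0.00296), PLA2G15 (difference 0.52 ± 0.10, adjusted p = 0.00333), SLC1A5 (difference 0.39 ± 0.08, adjusted p = 0.00334), ZRANB1 (difference 0.32 ± 0.06, adjusted p = 0.00408) and EIF3A, the largest subunit of a translation initiation factor (difference 0.29 ± 0.06, adjusted p = 0.00559). EIF3A had 290.1 RPM in water, 311 to 346 RPM in the media controls and 327, 469 and 559 RPM with increasing MMS, with the 100 and 200 µM values above all untreated ones.

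At 200 µM the 12 highest genes with at least 100 counts that lay outside the untreated range were SVEP1, MT1JP, SLC7A11, WDR69, KRT6A, SKA1, PRC1, MICALL1, PLK1, CENPL, SFN and CKAP2L. SVEP1, an extracellular matrix protein, had 0.793 RPM in the water control, 0.75 to 2.1 RPM in the media controls and 3.22, 9.5 and 11.3 RPM at 50, 100 and 200 µM (slope 1.18 ± 0.22, adjusted p = 5.70e-04). KRT6A, a keratin of stressed epithelia, had 29.4 RPM in water, 23.6 to 43.2 RPM in the media controls and 56, 86.9 and 111 RPM with increasing MMS (slope 0.60 ± 0.17, adjusted p = 0.0142). SKA1, PRC1, CENPL and CKAP2L serve the mitotic spindle and kinetochore. Among the 12 lowest were NR4A1, PGLYRP2, GLYAT, CYP2C8, GBA3, SLC38A4, LOC100507203, HPX, NFKBIZ, AFM and MASP1. GLYAT, which conjugates glycine, had 55.6 RPM in water, 48.5 to 104 RPM in the media controls and 29.7, 4.22 and 6.77 RPM with increasing MMS (slope -1.24 ± 0.20, adjusted p = 1.09e-04). NR4A1, an immediate early nuclear receptor, had 22.4 RPM in water, 1.18 to 24.4 RPM in the media controls and 4.43, 1.23 and 1.13 RPM with increasing MMS (slope -1.71 ± 0.42, adjusted p = 0.00666). Of the 4 media controls 3 were between 1.18 and 1.32 RPM, as low as the 100 µM library.

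At 50 µM the 5 highest genes outside the untreated range were the small nucleolar RNAs SNORA9, SNORA65, SNORA16A and SNORA71D and C9orf85. SNORA9 had 31.6 RPM in the water control, 47.1 to 88.5 RPM in the media controls and 97.5, 54.7 and 59.7 RPM at 50, 100 and 200 µM, and its trend did not pass (adjusted p = 0.8). In each of the 4 small nucleolar RNAs the water control was the lowest of the 5 untreated libraries. The 5 lowest were ZFP36, RASD1, EDN1, CCL20 and CXCL2. ZFP36, which destabilises AU-rich messenger RNAs, had 664 RPM in the water control, 255 to 613 RPM in the media controls and 179.8, 156 and 211 RPM at 50, 100 and 200 µM (slope -0.58 ± 0.14, adjusted p = 0.00461), and EDN1, endothelin, had 79 RPM in water, 31.8 to 75.1 RPM in the media controls and 24.4, 33.7 and 30.8 RPM with increasing MMS (slope -0.45 ± 0.12, adjusted p = 0.0137). All 3 MMS values of ZFP36 were below the 5 untreated ones.

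Between 100 and 200 µM 312 of 13094 genes passed 2-fold (2.38%), 225 higher (1.72%) and 87 lower (0.664%) at 200 µM. Pairs of untreated media controls passed the same limit at 14 to 868 genes (0.105 to 6.46%). Untreated pairs within 1 of the 2 sets gave 14 (ASC and AMP), 82 (2DG and water), 104 (NaCl and 2DG) and 198 (NaCl and water) genes. Pairs across the sets gave 431 to 868. The count of 312 thus lay above the pairs within a set and below those across the sets. Among the genes farthest above their 100 µM value were AKAP13, HOMER1 and RNF219. AKAP13, an anchoring protein of protein kinase A, had 21.3 RPM in the water control, 7.12 to 31.4 RPM in the media controls and 29.6, 6.07 and 24.6 RPM at 50, 100 and 200 µM, and HOMER1, a scaffold protein, had 20.3 RPM in the water control, 6.09 to 25.8 RPM in the media controls and 20.1, 4.31 and 17.1 RPM at 50, 100 and 200 µM. In these 3 genes the ASC and AMP media controls were the lowest of the untreated libraries, and the 100 µM value was lower still. The genes farthest below their 100 µM value were BLOC1S1, BLOC1S6, LOC148413, MRPL37 and AMMECR1L. MRPL37, a mitochondrial ribosomal protein, had 236 RPM in the water control, 184 to 242 RPM in the media controls and 218, 213 and 68.6 RPM at 50, 100 and 200 µM (slope -0.54 ± 0.11, adjusted p = 8.87e-04), and BLOC1S1 and BLOC1S6, subunits of a lysosome biogenesis complex, had 45.2 RPM in water, 47 to 56.2 RPM in the media controls and 43.6, 50.8 and 10.9 RPM with increasing MMS and 60.4 RPM in water, 52.9 to 60.6 RPM in the media controls and 57.4, 73.7 and 21.1 RPM with increasing MMS. In these 3 genes the 200 µM library alone was low, and without it the slopes of BLOC1S1 and BLOC1S6 were 0.039 and 0.10.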

How the data were processed

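The submitters' processing notes name the build hg19. The authors pooled RNA of the cultures of a condition, built AmpliSeq libraries, mapped the reads to the panel's targets and deposited counts per amplicon, together with RPM, the same counts per 1000000 counts of the library. All barcode columns belonged to the 39 samples, and 6 columns of gene annotation were not used. Scaling the counts anew gave the RPM values to within 5.38e-04.

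Each MMS library was set against the water control on log2(RPM + 1), with a limit of 2-fold and at least 10 counts in the higher library, with 1 library on each side and no p-value. The trend used edgeR 4.0.16 (quasi-likelihood test, TMM, filterByExpr, Benjamini-Hochberg over 13812 genes, 20 residual degrees of freedom) in R 4.3.3, and DESeq2 1.42.0 as an alternative. Adjusted p-values below 0.05 passed. On simulated counts (13625 genes, 100 changed per size) the trend found 70 genes with a slope of 0.5 and 10 with a slope of 0.25, and called 3 unchanged genes. Depth was 8864858 to 16425527 counts, and intervals for counting error are not given.

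The members and gene lists were chosen with earlier results of these data known. List members could be named, with the largest differences at 200 µM among genes with at least 50 counts and MDM2, CDKN1A, MGMT, MPG, ATF3 and DDIT3 in any case. Beyond the lists, the 12 highest and 12 lowest genes at 200 µM (at least 100 counts, same direction at 100 µM, outside the untreated range), the 8 lowest p of the trend per direction, the 5 highest and 5 lowest genes at 50 µM and of 200 against 100 µM, and the 6 lowest p per direction of the comparison with the other DDI chemicals were named. Alternatives covered the pseudocount, the scaling, the count filter, the control, the concentration scale and each MMS library left out. Promoters came from RefSeq (GRCh38.p14); amplicon coordinates were not used here. Some genes that the naming rule or the lists hold are not reported here.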

Additional observations from a re-analysis of the deposited data

Results flagged for a closer look

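Among the 4 media controls, 1 library lay far from the other 3 for 12 of the 178 genes named; chance alone gives about 1 in 20. The water control was not among these 4. It lay near the 2DG control for APOA1, ATF3, FOSB, IL8 and NR4A1, and near the other media controls for PPM1D. In the 2DG control this was so for APOA1 (1021 RPM in the 2DG control against 2025 to 2142 RPM in the others), ATF3 (67.2 RPM in the 2DG control against 10.8 to 15.6 RPM in the others), BIRC3 (226 RPM in the 2DG control against 161 to 166 RPM in the others), FOSB (47.3 RPM in the 2DG control against 3.53 to 5.84 RPM in the others), IL8 (268 RPM in the 2DG control against 145 to 163 RPM in the others), NR4A1 (24.4 RPM in the 2DG control against 1.18 to 1.32 RPM in the others), PPM1D (27.2 RPM in the 2DG control against 29.1 to 29.3 RPM in the others) and TYMS (216 RPM in the 2DG control against 192 to 194 RPM in the others). In the other controls it was so for ALKBH3 (29.4 RPM in the NaCl control against 20.6 to 21.6 RPM in the others), CYP2C8 (63.0 RPM in the NaCl control against 34.2 to 38.6 RPM in the others), LIG1 (48.7 RPM in the NaCl control against 32.1 to 32.8 RPM in the others) and SNORA16A (107 RPM in the ASC control against 71.4 to 73.3 RPM in the others).

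For 66 of the genes named the slope of MMS differed from the mean slope of AFB1, 2NF, CISP and ETP at an adjusted p below 0.05 (edgeR's quasi-likelihood test); the values are log2 per concentration step, MMS minus the others. It was higher with MMS by 0.47 for ATF4, 0.41 for CERS5, 0.28 for DNAJB11, 0.36 for DUSP14, 0.29 for EIF3A, 0.52 for PLA2G15, 0.50 for PRKAB1, 0.39 for SLC1A5, 0.56 for SLC7A11, 0.37 for TOR1AIP2, 0.78 for WDR69, 0.58 for ZNF140 and 0.32 for ZRANB1. In the NF-kB list it was -0.51 for BIRC3, -0.68 for CCL2, -0.70 for CCL20, -0.80 for CXCL1, -0.95 for CXCL10, -1.0004 for CXCL2, -0.82 for CXCL3, -0.74 for IL8, -0.26 for NFKBIA and -0.84 for NFKBIZ. Among immediate early, signalling and RNA-binding genes it was -0.57 for EDN1, -0.60 for FOS, -1.21 for FOSB, -0.35 for JUNB, -1.66 for NR4A1, -0.81 for RASD1, -0.59 for ZFP36 and -0.37 for PLK2. Among hepatocyte, metabolic and plasma protein genes it was -0.26 for ABCC2, -0.35 for AKR1B10, -0.60 for APOA1, -0.67 for CYP3A5, -0.34 for EPHX1, -0.47 for FGG, -0.63 for GBA3, -0.34 for GSTM4, -0.77 for HPX, -0.84 for MASP1, -0.72 for NR1H4, -0.44 for ORM2, -2.07 for OTC, -2.08 for PCK1, -1.35 for PGLYRP2 and -0.82 for SLC38A4. The hepatocyte list had a median slope of -0.85 for MMS and -0.79, -0.82, -0.09 and -0.04 for AFB1, 2NF, CISP and ETP. Of its 20 genes 4 were lower with MMS than with the mean of the others. With AFB1, 2NF, CISP or ETP left out of the mean, 9, 10, 1 and 2 were. Among replication and histone genes it was -0.46 for CDC45, -0.42 for GINS2, -0.64 for MCM5, -0.32 for MCM7 and -0.27 for HIST1H2BK. For the rest it was -0.64 for APBB2, -0.74 for COL3A1, -0.64 for ERVMER34-1, -0.87 for GABRE, -0.53 for GULP1, -0.58 for IQGAP2, -1.11 for KRT23, -0.85 for LOC100507203, -0.53 for MRPL37, -0.72 for MUM1L1, -0.87 for PECAM1, -0.68 for SESN3, -0.68 for SPP1 and -0.79 for TRIB2.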

How the results depend on the processing

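No paired analysis was possible because each concentration and its water control were 1 library each. At 50 µM the count of 127 genes past 2-fold was 461 with a pseudocount of 0.1 RPM and 64 with a minimum of 100 counts; with that pseudocount 1792 passed at 200 µM and 719 between 200 and 100 µM. The 2140 genes of the trend were 1322 with concentration as a share of the high one and 4842 with all 9 controls at step 0 and no control sets; without 1 MMS library they were 1632 to 1710. The 586 genes of the comparison with the other DDI chemicals were 266 with that share, 895 with log2 concentration, 355 without ETP and 424 to 692 without 1 MMS library. The other totals stayed within 1.5 times, but counts in one direction moved more: with TMM factors the 424 higher genes at 200 µM were 264 and the 53 at 50 µM were 30, and the 705 rising genes of the trend were 1360 with 8 libraries and no control sets and 431 without the 50 µM library. The alternatives gave 1474 slopes for 134 named genes (those that passed the trend, with ATF3, CDKN1A, DDIT3, MDM2 and MPG), of which 144 no longer passed, 2 newly passed and 2 reversed. Of the named genes the slopes of BLOC1S1 and BLOC1S6 reversed without the 200 µM library: leaving out 1 MMS library gave -0.75 to 0.039 and -0.56 to 0.10. The cause of these changes was not tested. Against the mean of the 5 untreated libraries, an alternative for the lists that was chosen after seeing the data, the mitosis median at 200 µM was 1.63 (1.31 against water), the NF-kB median -0.56 (-1.04) and the hepatocyte median -2.09 (-1.78). The depth of 8864858 to 16425527 counts limits genes of few counts, and the trend test found 10 of 100 simulated slopes of 0.25.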
